A study of Arabidopsis thaliana with 6 samples.

Results

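BRL1 (AT1G55610), BRH1 (AT3G61460) and EXO (AT4G08950) are 3 Arabidopsis genes tied to brassinosteroids, a class of plant steroid hormones, and each was read from the 1 array row whose annotation names it. They are 3 of the 16548 genes that this expression array names by a row of their own. BRL1 encodes a receptor of the hormone, BRH1 a RING-H2 protein named for its response to it, and EXO (EXORDIUM) a secreted protein that promotes growth. RNA came from dark-grown suspension cells, which the labels call Alex, and all 6 arrays hold cells with an estrogen-inducible fusion of ATHB8 and GFP. Estrogen at 5 µM was present for 24 h in the cells of the 3 induced arrays, whereas those of the 3 uninduced arrays went without it for 24 h. The fused protein, ATHB8, belongs to the class III homeodomain leucine zipper transcription factors and is known from procambium, which gives rise to xylem and phloem, and the series looked for genes downstream of it. No cells without the transgene were analysed here, so estrogen and the fusion protein cannot be told apart as the source of a difference.

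Brassinosteroids bind at the cell surface to BRI1 and its relatives BRL1 and BRL3, receptor kinases with leucine-rich repeats, which act with co-receptors such as BAK1. The signal inactivates the kinase BIN2 and so releases the transcription factors BZR1 and BES1, which switch growth genes on and genes of hormone synthesis off. BRL1 is known for its expression in vascular cells. In whole plants or seedlings, brassinosteroid is known to raise EXO transcript and to lower BRH1 transcript.

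The log2 signals cover 38408 rows per array (16722 of them with a single gene name), and their median lay between 5.80 and 5.95 in the 6 arrays. The replicate 1 arrays of both groups share exactly the same value in 31.8% of rows. The rows of BRL1, BRH1 and EXO are not among them. ATHB8 has no row under its name, so the level of the induced gene could not be read. Of 24 marker genes listed for xylem, phloem, procambium, photosynthetic cells and root hairs, 2 have a named row (CLE41 of phloem and EXPA7 of root hairs), so the cell types in the culture could be read only in small part. Precision is limited by the size of the groups (3 arrays each). The labels do not state whether replicates were separate cultures, and p-values then reflect no more than how these samples vary, possibly for technical reasons. RNA was taken from the whole culture, so fewer cells that express a gene and less RNA of it per cell cannot be told apart.

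BRL1, the receptor gene, lay lower in the induced cells in every array, with an adjusted p just above the threshold of 0.05. Its log2 signal was 8.98, 9.02 and 8.92 in induced replicates 1, 2 and 3, against 9.80, 9.75 and 9.57 in uninduced replicates 1, 2 and 3. The groups did not overlap, and the gap between the highest induced array and the lowest uninduced array (0.55) was wider than the range within either group (0.10 in induced and 0.23 in uninduced arrays). The mean was 8.97 ± 0.05 in induced cells and 9.70 ± 0.12 in uninduced cells (SD, n = 3 each). The difference of -0.73 ± 0.11 (SE; 95% interval -0.999 to -0.462) corresponds to 0.603 of the uninduced signal on the linear scale, with an interval of 0.501 to 0.726. In limma, fitted over all rows, the adjusted p was 0.0509 and the unadjusted p 0.0005, and 376 rows of the array had a smaller p. An exact permutation test of the 3 induced against the 3 uninduced arrays gave a two-sided p of 0.1, the smallest that 3 against 3 can give. Over the whole array 0.961% of rows passed at an adjusted p under 0.05. The groups stood apart with the induced arrays lower in 6.43% of rows. Groups cannot stand apart in the 31.8% of rows where induced and uninduced replicate 1 have identical signals. BRL1 is not one of those rows, and among the remaining rows the share is higher than 6.43%. The shares of rows with groups apart given below for CLE41, BRH1, BIM1, ATL43 and SIS are too low in the same way.

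CLE41, the 1 measured marker of the 15 listed for xylem, phloem and procambium, moved the same way as BRL1. It encodes the precursor of a peptide from phloem that keeps procambium dividing. CLE41 had log2 signals of 5.22, 5.37 and 5.34 in induced replicates 1, 2 and 3, against 6.30, 6.16 and 6.59 in uninduced replicates 1, 2 and 3. Its groups did not overlap, and the induced arrays lay lower, as in 6.43% of all rows. Its log2 signal fell by 1.04 ± 0.14 (SE; limma adjusted p = 0.0393), where 0.961% of all rows passed. That call ended with the replicate block (limma adjusted p = 0.0734), in replicates 2 and 3 alone (0.163) and when any single array was left out (0.105 to 0.189). The part of CLE41 in the BRL1 difference was not tested. EXPA7, the 1 measured marker of the 4 listed for root hairs, differed by -0.10 ± 0.24 (SE). Its groups overlapped, and it holds equal values in the replicate 1 arrays.

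**Figure D1:**
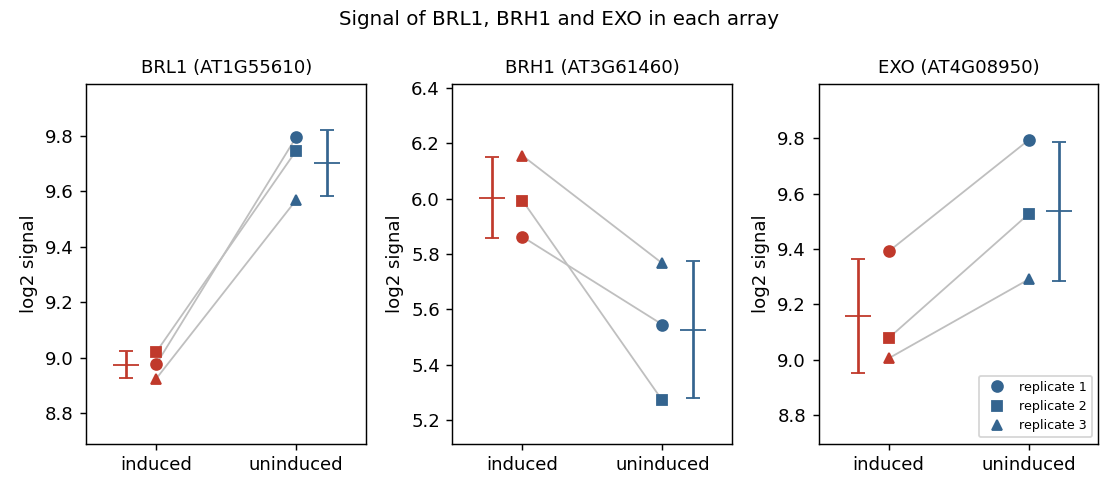
Log2 signal (y axis) of BRL1, BRH1 and EXO in the 3 induced arrays (red, left) and the 3 uninduced arrays (blue, right). Marker shapes stand for replicate numbers, grey lines join arrays of the same number, bars beside the points give mean and SD, and the y axes span the same number of log2 units. The induced arrays of BRL1 lie between 8.92 and 9.02, below all uninduced arrays, while the groups of EXO overlap.

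BRH1, the RING-H2 gene, lay higher in the induced arrays, with a difference that did not pass the test. RING-H2 proteins carry a zinc-binding domain found in many ubiquitin ligases. BRH1 had log2 signals of 5.86, 5.99 and 6.16 in induced replicates 1, 2 and 3, against 5.55, 5.27 and 5.77 in uninduced replicates 1, 2 and 3. All 3 induced arrays lay above all 3 uninduced ones, as in 5.82% of rows, but the gap between the groups (0.10) was narrower than the range within either group (0.29 in induced and 0.50 in uninduced arrays). The mean was 6.003 ± 0.147 in induced cells and 5.527 ± 0.248 in uninduced cells (SD, n = 3 each), a difference of 0.48 ± 0.16 (SE; 95% interval 0.08 to 0.87), or 1.39-fold. The limma adjusted p was 0.424, with an unadjusted p of 0.0255, and 8.48% of all rows had an unadjusted p under 0.05. The exact permutation p was 0.1 (two-sided).

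EXO, the gene of the growth-promoting secreted protein, lay lower on average in the induced cells, with overlapping groups. EXO had log2 signals of 9.391, 9.078 and 9.005 in induced replicates 1, 2 and 3, against 9.793, 9.526 and 9.290 in uninduced replicates 1, 2 and 3. The highest array of the induced group, replicate 1, lay above the lowest uninduced array, replicate 3. The mean was 9.16 ± 0.21 in induced cells and 9.54 ± 0.25 in uninduced cells (SD, n = 3 each), a difference of -0.38 ± 0.18 (SE; 95% interval -0.81 to 0.05), or 0.769 of the uninduced signal. The limma adjusted p was 0.70 and the exact permutation p 0.2 (two-sided). The interval spans 0.571 to 1.04 of the uninduced signal on the linear scale, which includes equal signals in both groups.

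Arrays of the same replicate number shared much of the spread of EXO, and a fit blocked by that number narrowed its error most among the 3 genes. Within the same-numbered pairs EXO differed by -0.40, -0.45 and -0.29 (induced minus uninduced, replicates 1, 2 and 3). With the replicate number as a block its standard error was 0.074 instead of 0.177, and its limma adjusted p 0.146. A block that only sets replicate 1 apart gave EXO a standard error of 0.091 (limma adjusted p = 0.139). The replicate block narrowed the error of all 8 measured genes of the brassinosteroid list. Over the whole array, rows with an unadjusted limma p under 0.05 rose from 3258 to 5306 with it. Rows with a limma adjusted p under 0.05 fell from 369 to 242. BRL1 differed by -0.82, -0.73 and -0.64 in the 3 pairs, and its standard error was 0.074 with the block and 0.111 without it. BRH1 differed by 0.32, 0.72 and 0.39, and its standard error was 0.112 with the block and 0.163 without it. All 3 genes thus had the same sign in every pair. So did BIM1, AT1G27190 and EXPA8 of the listed brassinosteroid genes, EXPA8 with differences of only -0.078, -0.015 and -0.06. The groups of BRL1, BRH1 and BIM1 do not overlap, so any pairing would give these 3 the same sign in every pair. The share of all rows with the same sign in every pair was not counted. With the block 0 of the 3 passed (limma adjusted p = 0.0654 for BRL1 and 0.194 for BRH1), against 0.630% of all rows.

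**Figure D2:**
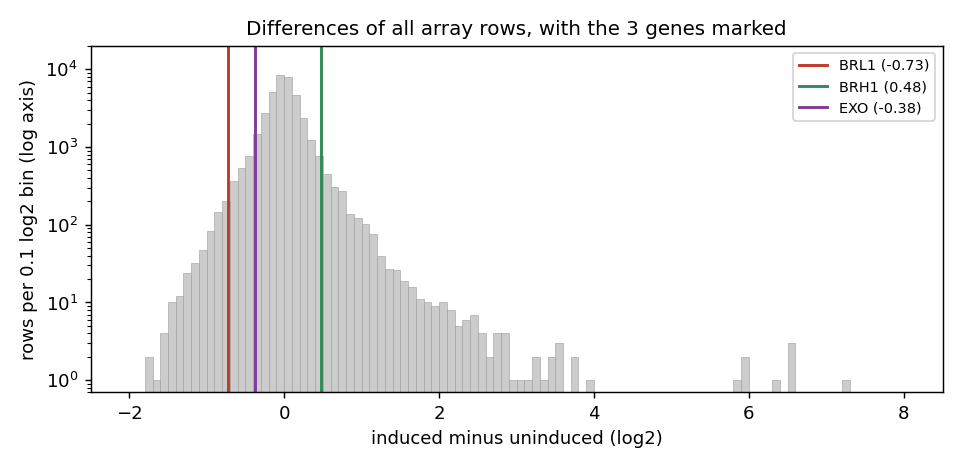
Number of array rows (y axis, log scale) by their induced minus uninduced difference in bins of 0.1 log2 units (x axis), with vertical lines at the differences of the 3 genes. BRL1 (-0.73), EXO (-0.38) and BRH1 (0.48) lie in the flanks of the distribution and far from the largest rises.

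Set against the whole array, the differences of the 3 genes were moderate in size. A larger absolute difference than that of BRL1 was found in 3.53% of all rows, than that of BRH1 in 9.10%, and than that of EXO in 13.4%. The median absolute difference of all rows was 0.12 on the log2 scale, and the median difference was -0.01.

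BRL1 stood so close to the threshold that the choice of setting decided its call. It passed with quantile normalization (limma adjusted p = 0.0457, where 0.919% of rows passed), with array weights (0.022, 2.54% of rows) and with a trended and robust variance prior (0.0108, 1.84% of rows). A filter on mean signal at its 25th percentile (limma adjusted p = 0.0248, 2.40% of rows) or median (0.010, 4.31% of rows) also took it past the threshold. So did keeping single-gene rows (limma adjusted p = 0.0249, 2.11% of rows) or distinct rows (0.0305, 1.86% of rows) and a block that sets replicate 1 apart (0.0291, 2.88% of rows). BRL1 did not pass with median subtraction (limma adjusted p = 0.0503, 0.924% of rows), in replicates 2 and 3 alone (0.157, 0.208% of rows), or when any single array was left out (0.128 to 0.240). The difference itself stayed between -0.80 and -0.68 in all 17 alternatives. BRH1 stayed between 0.35 and 0.60 in 16 alternatives and EXO between -0.50 and -0.25 in 17, and neither passed in any of them. The filters, the variance prior, the choices of single-gene or distinct rows and the blocks leave a difference unchanged by design. Only the other settings could move it.

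**Figure D3:**
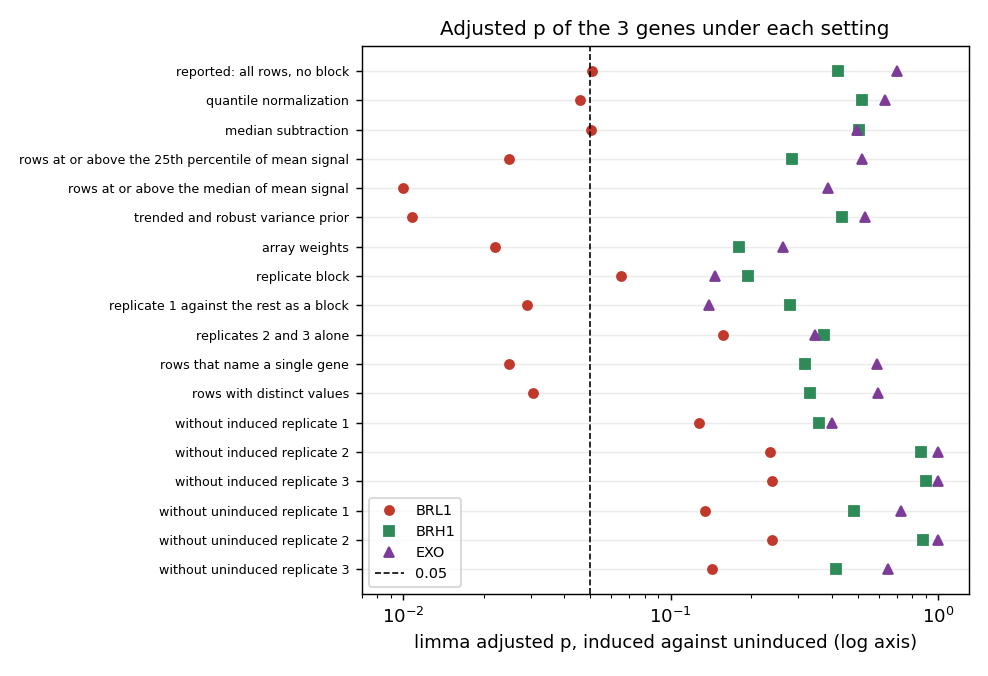
Limma adjusted p for induced against uninduced cells (x axis, log scale) of BRL1 (circles), BRH1 (squares) and EXO (triangles) in the reported fit (top) and in each alternative. BRL1 falls on both sides of the dashed line at 0.05 (0.010 to 0.240), while BRH1 and EXO stay to the right of it, and BRH1 is missing where only rows at or above the median signal were tested.

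The rest of the brassinosteroid pathway could be read only in small part. Of 69 listed genes 8 have a row that names them, counting BRL1, BRH1 and EXO, and 0 of the 8 passed over all rows in limma, against 0.961% of all rows. At an unadjusted p under 0.05, 1 gene lay lower (BRL1; 4.31% of all rows) and 1 higher (BRH1; 4.17% of all rows). Of the 8 genes 5 lay lower and 3 higher, with a median log2 difference of -0.11, while the median of all rows was -0.01. These counts include BRL1, BRH1 and EXO, which were chosen with earlier results known. Of the 5 other genes 3 lay lower and 2 higher, with a median of -0.05. In limma 0 of these 5 had an unadjusted p under 0.05.

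Among the 4 listed receptors BRL1 was the only one with a named row, so BRI1, BRL2 and BRL3 gave no value for comparison. Of 10 enzymes of hormone synthesis and 4 co-receptors 0 have a named row. Among the 10 listed transcription factors the only one measured was BIM1, a basic helix-loop-helix protein that binds DNA together with BES1. BIM1 had log2 signals of 10.094, 10.232 and 10.196 in induced cells, against 10.019, 9.996 and 9.929 in uninduced cells. All 3 induced arrays thus lay above all 3 uninduced ones, as in 5.82% of rows, with a difference of 0.19 ± 0.10 (SE; limma adjusted p = 0.793).

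Among the 13 listed hormone-responsive genes, EXO, BRH1 and the expansin gene EXPA8 have a named row. Expansins loosen the cell wall during growth. EXPA8 had log2 signals of 5.89, 6.11 and 6.07 in induced cells, against 5.97, 6.13 and 6.13 in uninduced cells, a difference of -0.05 ± 0.12 (SE; limma adjusted p = 1.0; 95% interval -0.33 to 0.23). The 7 other listed genes of the EXO family have no named row.

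UGT73C6, a glucosyltransferase that can inactivate brassinosteroids, was the 1 measured gene of 5 that inactivate the hormone. Its rows had low signals, with means over the 6 arrays of 2.92 and 2.15, both below the 25th percentile of row means (3.796). It differed by -0.16 ± 0.16 in the row with the higher mean signal (SE; limma adjusted p = 1.0) and by -0.27 in its second row. Both rows hold equal values in the replicate 1 arrays. UGT73C6 belongs to a cluster of closely similar genes, and whether its rows tell them apart was not tested. The other listed loci with a named row carry no symbol in the current gene table. AT1G27190 differed by -0.26 ± 0.15 (SE; limma adjusted p = 0.85). AT4G12810, with equal values in the replicate 1 arrays and a mean of 3.18, also below that percentile, differed by 0.04 ± 0.27 (limma adjusted p = 1.0). UGT73C6 and AT4G12810 were not shown to lie above background, and without them 6 listed genes remain measured.

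**Figure D4:**
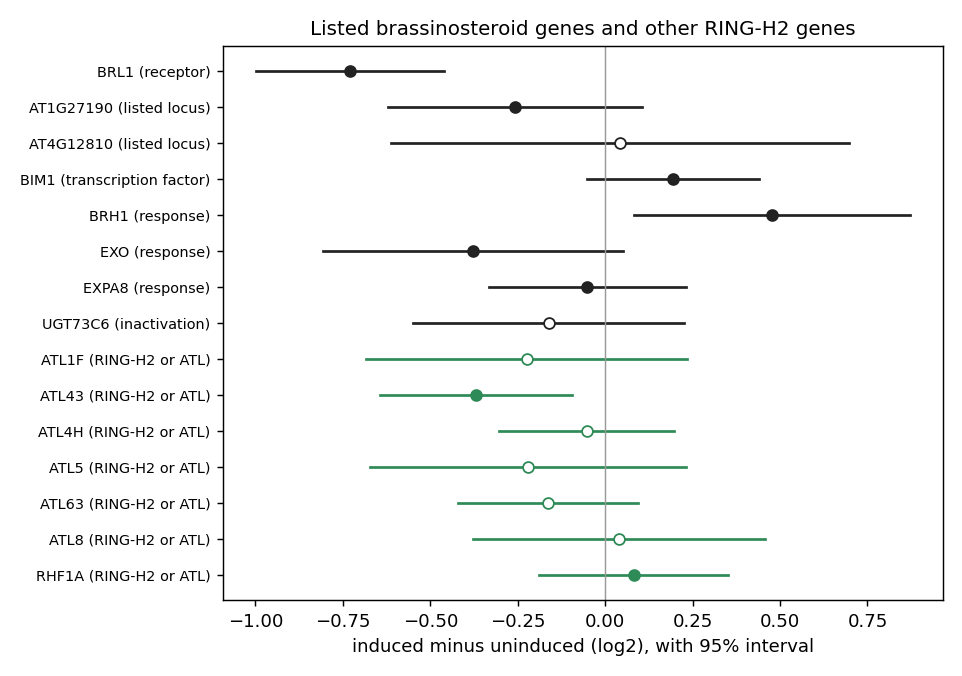
Induced minus uninduced difference (x axis, log2) with its 95% interval for the 8 measured brassinosteroid genes (black) and 7 other RING-H2 or ATL genes (green), with open circles for rows equal in both replicate 1 arrays. The intervals of BRL1, BRH1 and ATL43 lie off 0 before adjustment, and none of the 15 genes passed the test over all rows.

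BRH1 was also set beside other RING-H2 genes, a list drawn from names in the gene table after the annotation had been seen. Of 29 such genes 7 have a named row, 5 of which are equal in both replicate 1 arrays. Of the 7 genes 5 lay lower and 2 higher, with a median log2 difference of -0.16, and 0 passed in limma, against 0.961% of all rows. These counts include ATL8, ATL1F and ATL4H, with means of 1.89, 2.89 and 2.94, below the 25th percentile of row means (3.796). Those genes were not shown to lie above background. At an unadjusted p under 0.05, 0 lay higher (4.17% of all rows) and 1 lower (4.31% of all rows), namely ATL43 at -0.37 ± 0.11 (SE; limma adjusted p = 0.328). ATL43 had log2 signals of 7.05, 6.89 and 6.87 in induced cells, against 7.32, 7.39 and 7.20 in uninduced cells, so its groups lay apart in the opposite direction to BRH1, as in 6.43% of rows. RHF1A, the other gene without equal values, differed by 0.08 ± 0.11 (limma adjusted p = 1.0).

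The measured genes near the 3 in the RefSeq order of the genome lay 2 to 4 genes away. They gave smaller differences than the 3 genes themselves. The 3 genes were chosen with earlier results known, and the median absolute difference of all rows was 0.12. Smaller differences were therefore likely for most rows, whatever their place in the genome. Within 4 genes on either side, BRL1 has 3 neighbours with a named row, at log2 differences of 0.06 (AT1G55590), -0.02 (AT1G55630) and 0.02 (PRA1.G1). BRH1 has 4, with differences from -0.19 (AT3G61500) to -0.05 (AT3G61490). EXO has 1, AT4G08960, at -0.12 ± 0.13 (SE). AT1G55630 and AT3G61500 hold equal values in the replicate 1 arrays. Of these 8 neighbours 0 passed (limma adjusted p = 1.0 each), against 0.961% of all rows.

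The named genes whose pattern over the 6 arrays lay nearest to each of the 3 were found by the root mean square distance of log2 values centred on their mean, among 1762 other genes with a symbol. The distance describes these 6 arrays only, and the direction and size of the differences of the genes found follow from how they were picked. So does a likeness in the order of the arrays or in whether the groups stand apart. BRL1 itself deviated from its mean by 0.37 (root mean square). Its nearest genes were YLS5, of the DJ-1 family, at a distance of 0.075, the immune receptor gene CSA1 at 0.085 and KINESIN-12B, a motor of cell division, at 0.097, with differences of -0.70 ± 0.11, -0.63 ± 0.13 and -0.59 ± 0.10 (SE; limma adjusted p = 0.0531, 0.118 and 0.0599).

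EXO deviated from its mean by 0.27, and the gene nearest to it was TUB7, a beta-tubulin, at a distance of 0.051. TUB7 had log2 signals of 9.39, 8.98 and 8.85 in induced cells, against 9.75, 9.40 and 9.22 in uninduced cells. As in EXO, both replicate 1 arrays were the highest of their group, a likeness that follows from the pick by pattern. The ubiquitin ligase gene PUB22 and TBL28, of a family that includes wall acetyltransferases, followed at 0.079 each. BRH1 deviated by 0.29, and its nearest genes were SIS at 0.096, the iron-response transcription factor BHLH101 at 0.101 and TRY, a repressor of trichome fate, at 0.117. SIS differed by 0.60 ± 0.15 (limma adjusted p = 0.187), with all 3 induced arrays above all 3 uninduced ones, as in 5.82% of rows. SIS was picked for its likeness to BRH1, whose groups also stand apart, so that share does not measure how unusual SIS is. BHLH101 and TRY hold equal values in the replicate 1 arrays. The mean of BHLH101 (2.81) lies below the 25th percentile of row means (3.796).

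**Figure D5:**
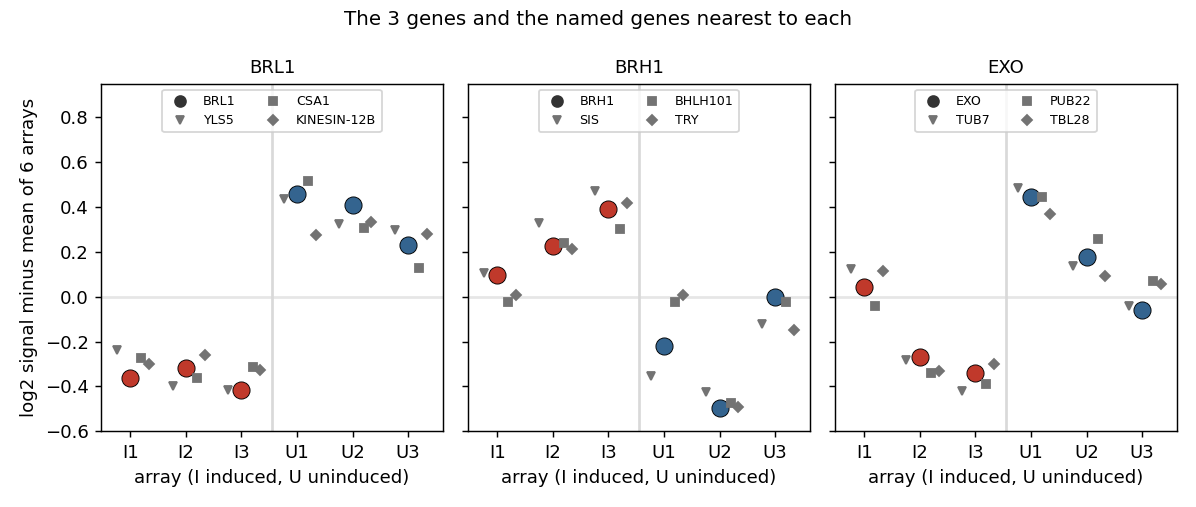
Log2 signal minus the mean over 6 arrays (y axis) in each induced (I) and uninduced (U) array (x axis) for BRL1, BRH1 and EXO (large circles) and the 3 named genes nearest to each (small grey markers). The markers of TUB7 lie closest to EXO (distance 0.051), and those of TRY lie farthest from their gene (0.117).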

How the data were processed

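The authors' deposited values are log2 signals per array row, for which the submitters' processing notes name Affymetrix Expression Console 1.3. Their background correction, normalization and genome build are not given in the sources used here, so they were taken unchanged, without coordinates. The log2 scale was read from the range of the values. Rows were named by the array annotation and paired with loci through RefSeq (TAIR10.1) gene IDs, which matched 16574 of 16722 rows. Where several rows name a gene, that of highest mean signal stands for it. Induced minus uninduced differences were fitted in R 4.3.3 with limma 3.58.1 (lmFit, eBayes, no block, no filter), two-sided, with Benjamini-Hochberg adjustment over all 38408 rows and a threshold of 0.05. The fit was tested on simulated data. After subtraction of group means, same-numbered arrays correlated at 0.633, 0.268 and 0.248, all above 0.1, so fits blocked by replicate number stand beside the results. Differently numbered arrays among replicates 2 and 3 correlated at 0.244 and 0.260, about as much, so the values single out no pairing beyond replicate 1. Deviations from a group mean cancel out, so a deviation shared by the replicate 1 arrays alone also makes replicates 2 and 3 correlate. The correlations were computed over all rows, including the 31.8% with equal values in the replicate 1 arrays. The part of those rows in the correlations was not tested. Named genes were BRL1, BRH1 and EXO, all measured receptors and EXO relatives, up to 4 genes of each other role, and the 3 nearest patterns per gene. The 3 genes and the lists were chosen with earlier results of these data known. No sequences are printed. Figures used matplotlib 3.10.9 in Python 3.11.15.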

Additional observations from a re-analysis of the deposited data

How the results depend on the processing

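The BRL1 difference kept its sign in all 17 alternatives and passed in 8 of them: at -0.72 with quantile normalization, at -0.70 with array weights, and at -0.73 with either filter on low signal, the trended and robust prior, single-gene rows, distinct rows and a block that sets replicate 1 apart. In each of these 8 settings 1 listed brassinosteroid gene was called, BRL1, against 0 in the reported fit. With the replicate block BRL1 stayed at -0.73 (limma adjusted p = 0.0654). BRH1 and EXO kept their sign and passed in none of their 16 and 17 alternatives. The filters, the prior, the choices of rows and the blocks could not change a difference. The groups of BRL1 and BRH1 do not overlap, so leaving out arrays could not reverse their sign. The median filter removed BRH1, whose mean of 5.77 lies below the median row mean of 5.84. The number of rows called, 369 in the reported fit, was 691 and 827 with the 25th percentile and median filters, 706 with the trended and robust prior, 977 with array weights, 613 over distinct rows, 1106 with the block that sets replicate 1 apart, 242 with the replicate block and 80 in replicates 2 and 3 alone. Leaving out 1 array gave 48 to 167 rows. The filters and the distinct rows test fewer rows, and leaving out arrays uses fewer samples. The cause of the other changes was not tested. Signal over background was not analysed here.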
